A study of Mus musculus with 24 samples.

Results

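The Timm and Tomm genes encode the machinery that carries proteins made in the cytosol into mitochondria. All genes whose mouse symbol starts with Timm or Tomm followed by a digit were taken, which gave 26 of the 24346 genes in the count files: 25 protein-coding genes and the antisense RNA Tomm6os. A 27th annotated symbol, the pseudogene Timm29-ps1, had no counted transcript. 24 of the 26 passed the filter on low counts and are among the 13356 genes tested. The other two were Timm8a2, with 6 counts over all 12 libraries, and Tomm20l, with 24.

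Nearly every mitochondrial protein is encoded in the nucleus and enters through the TOM complex of the outer membrane, in which receptors hand precursors to the channel formed by Tomm40. From there, proteins with a cleavable presequence go through the presequence translocase around Timm23, while carrier proteins are guided by small chaperones of the intermembrane space to the carrier translocase around Timm22. These roles were worked out largely in yeast and in human cells. Fat cells that burn fuel for heat are rich in mitochondria, and nuclear respiratory factor 1 (Nrf1) is a transcription factor known for binding promoters of nuclear genes for mitochondrial proteins.

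The data come from 3T3-L1, a mouse preadipocyte line that forms fat cells after hormonal induction, at passages 13 to 18. RNA-seq covered 4 groups of 3 libraries titled as biological replicates: cells with the genotype label LSD1 overexpression (3T3-L1_LSD1, here LSD1oe) at day 7, control 3T3-L1 cells at day 7, LSD1oe cells at day 0 and control cells at day 0. LSD1, encoded by Kdm1a, is a histone demethylase, and the series concerns its part in the formation of beige fat cells. Day 0 is confluent cells before treatment, and day 7 follows induction with a mix of isobutylmethylxanthine (500 µM), rosiglitazone (10 µM), dexamethasone (1 µM) and insulin (10 µg/ml), followed from day 3 by medium with insulin. 4 peak lists from chromatin immunoprecipitation (ChIP-seq) show LSD1 in the same 4 conditions and 2 show Nrf1 at day 7 and at day 0, from 1 sample each. The Nrf1 sample of day 0 is titled 3T3-L1. That of day 7 is titled 3T3-L1_LSD1 but has control as its genotype label. Day and cell label therefore cannot be told apart between the 2 Nrf1 lists. How the LSD1oe cells were made, and whether they are 1 clone, is not given in the labels, nor is it said whether replicates were separate cultures, so p-values measure the spread between these libraries.

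Kdm1a itself was counted over its RefSeq transcript, and whether an introduced copy would add to that count is not given. Kdm1a averaged 54.7 ± 0.607 CPM (counts scaled to the size of the library) in LSD1oe and 69.4 ± 4.50 CPM in control at day 7. At day 0 it averaged 97.5 ± 7.47 CPM in LSD1oe and 83.1 ± 3.76 CPM in control (SD, n = 3 each). By edgeR's quasi-likelihood test with Benjamini-Hochberg adjustment it was lower at day 7 (adjusted p = 0.00751) and did not pass as higher at day 0 (adjusted p = 0.0969), so the overexpression label is used here as a label only. Each library held between 27512273 and 37565527 counts. 1 library stood apart: LSD1oe day 0 replicate 1 correlated at 0.955 and 0.957 with its 2 replicates across genes, which correlated at 0.993 with each other, and its effect on the calls and on the largest values is given beside them. Summed adipocyte markers (6 genes) ran from 25810 to 31640 CPM in LSD1oe and from 9314 to 11030 CPM in control at day 7, and from 470.5 to 585.7 CPM in LSD1oe and from 627.9 to 805.3 CPM in control at day 0. Summed fibroblast markers (6 genes) ran from 1243 to 1276 CPM in LSD1oe and from 7144 to 7773 CPM in control at day 7, and from 9584 to 10900 CPM in LSD1oe and from 23540 to 25410 CPM in control at day 0. By the same test 5 of these 6 were lower and 1 higher in LSD1oe at day 0. Over time in control, 5 were likewise lower and 1 higher. The macrophage markers summed to at most 2.06 CPM in any library with Adgre1 at 0, and the endothelial ones to at most 2.55 CPM. The 5 muscle markers, of which 1 was tested and Myod1, Myog and Actc1 were at 0 in all groups, summed to 31.4 to 42.7 CPM in LSD1oe and 12.3 to 14.9 CPM in control at day 7, and to 6.57 to 17.3 CPM in LSD1oe and 3.81 to 4.92 CPM in control at day 0. The marker levels moved with both day and label, their part in the levels of import genes was not tested, and in bulk RNA fewer cells of a type and less RNA per cell cannot be told apart.

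The sequences shown first are the matches to the Nrf1 motif (sites) under the Nrf1 promoter peaks of the family. These peaks were 911 to 1465 bases wide at day 7 and 651 to 1277 at day 0. Binding at the printed bases themselves was therefore not tested. 6 members had an Nrf1 peak within 1 kb of a start site, the same 6 in both lists: Timm13, Timm21, Timm29, Timm8b, Tomm20 and Tomm7. The motif searched on both strands was GCGC, then any base, then TGCGC. The sites of 5 of these members are printed; that of Timm21 is not shown here. Each site is printed with 10 bases either side, read along the strand of the gene, with the motif in capitals (RefSeq assembly GRCm38.p6). The Tomm7 site lies at chr5:23844137-23844166 on the minus strand and the Tomm20 site at chr8:126945922-126945951 on the minus strand, both before the start site. The Timm8b site lies at chr9:50603909-50603938 on the plus strand and the Timm29 sites at chr9:21592753-21592782 and chr9:21592867-21592896 on the plus strand, all in the 5' UTR. The Timm13 sites lie at chr10:80900392-80900421 and chr10:80900351-80900380 on the minus strand, in an intron. 5 of the 7 sites share the same motif letters, and the Tomm7 site and the second Timm29 site differ from them at the open base.
Tomm7: gccccacgtgGCGCATGCGCagctcctctc
Tomm20: gggtccatctGCGCGTGCGCaccaggcgtt
Timm8b: cgctgccaccGCGCGTGCGCaccccagcga
Timm29, first site: attgctctatGCGCGTGCGCgccgctcgac
Timm29, second site: cctgtatcttGCGCTTGCGCaggatctact
Timm13, first site: tgagagatgtGCGCGTGCGCggcctctagc
Timm13, second site: aggaagttgtGCGCGTGCGCggggtgagga

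At day 7 the import machinery was broadly higher in LSD1oe than in control. 18 of the 24 tested members were higher and 0 lower (edgeR's quasi-likelihood test, Benjamini-Hochberg adjusted p under 0.05), where 30.2% of all genes tested were higher and 33.4% lower (63.6% in either direction). No member was lower at an unadjusted p under 0.05 or by DESeq2 either, which also called 18 higher. The median log2 difference was 0.81 over the members and -0.05 over all genes tested. In 19 members every LSD1oe library lay above every control library, which was so for 35.8% of all genes tested; in 0 members did every library lie below, against 39.1%. The 23 tested protein-coding members together came to 2078.3 ± 59.1 CPM in LSD1oe and 1219.8 ± 37.5 CPM in control (SD, n = 3 each).

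**Figure D1:**
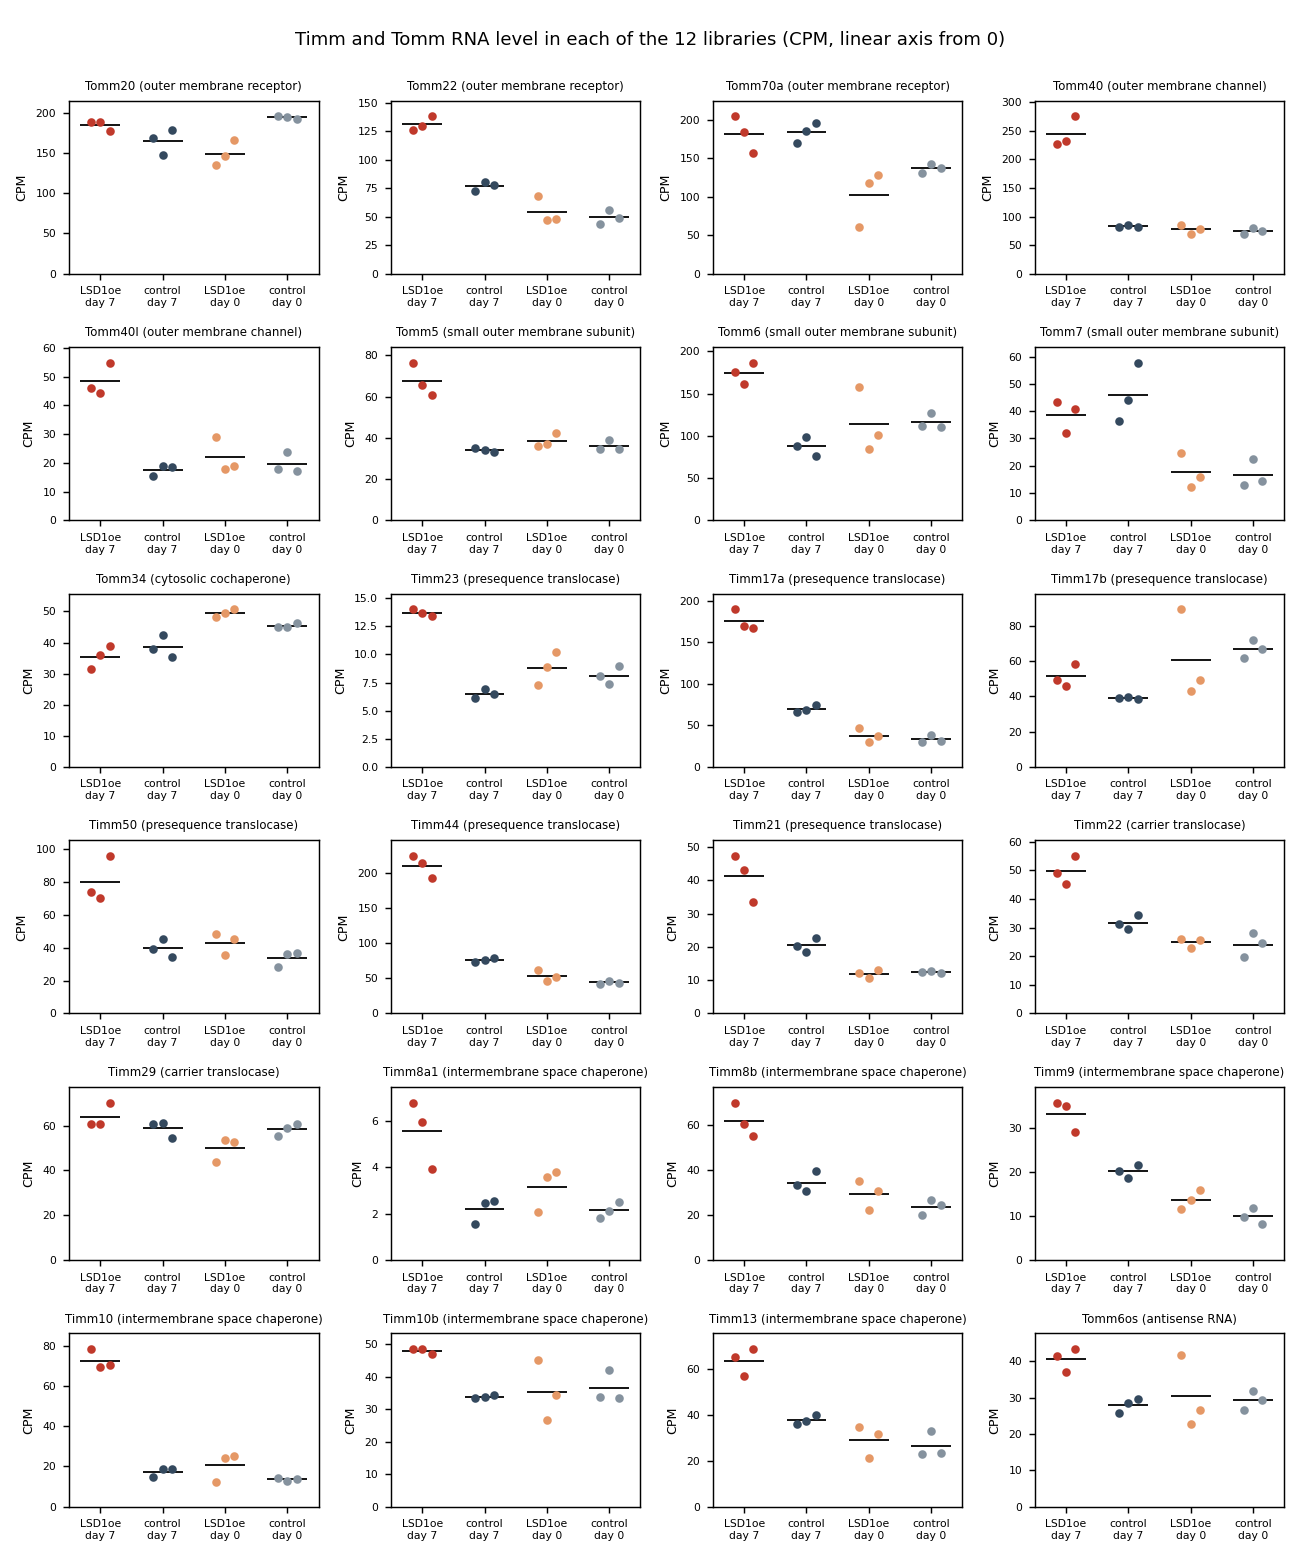
CPM (vertical axes, linear from 0) of the 24 tested Timm and Tomm members in each of the 12 libraries, by group on the horizontal axes, with 1 point per library and a bar at the mean of 3. The day 7 LSD1oe points lie above the day 7 control points in 19 of the 24 panels, while Tomm20, Tomm70a, Tomm7, Timm29 and Tomm34 overlap.

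Among the outer membrane receptors, the calls differed by gene. Tomm22, the central receptor that docks the other receptors onto the complex, had 126, 130 and 138 CPM in LSD1oe, against 72.9, 80.6 and 77.7 CPM in control. Its log2 difference was 0.77 ± 0.14 (SE; adjusted p = 0.00045), with no overlap between the groups. Tomm20, the main receptor for presequences, had 189, 188 and 177 CPM in LSD1oe, against 168, 147 and 178 CPM in control, a log2 difference of 0.17 ± 0.10 (adjusted p = 0.181). Tomm70a, the receptor for carrier and other internal-signal precursors, had 204.5, 184 and 157 CPM in LSD1oe, against 170, 185.5 and 195.5 CPM in control (-0.01 ± 0.21, adjusted p = 0.958). The groups overlapped for Tomm20 and Tomm70a.

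The channel genes rose the most in the outer membrane. Tomm40, the pore of the TOM complex (chr7:19701313-19715442), had 227, 233 and 275 CPM in LSD1oe, against 81.3, 84.9 and 82.1 CPM in control. That is a log2 difference of 1.56 ± 0.11, or 2.96-fold, with the smallest adjusted p of the family at day 7 (9.89e-08). Its paralog Tomm40l had 46.0, 44.4 and 54.8 CPM in LSD1oe, against 15.4, 18.9 and 18.5 CPM in control (1.46 ± 0.19, adjusted p = 2.67e-05). Neither gene had overlapping groups.

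The small subunits of the TOM complex were split. Tomm5 had 76.3, 65.4 and 60.8 CPM in LSD1oe, against 34.8, 34.1 and 33.2 CPM in control (0.99 ± 0.12, adjusted p = 8.93e-06). Tomm6 had 175, 162 and 186 CPM in LSD1oe, against 87.4, 98.3 and 76.3 CPM in control (1.00 ± 0.19, adjusted p = 0.000543). Tomm5 was 1.98-fold and Tomm6 2.00-fold higher, with no overlap. Tomm7 had 43.2, 31.9 and 40.7 CPM in LSD1oe, against 36.6, 44.0 and 57.7 CPM in control, with overlapping groups (-0.26 ± 0.27, adjusted p = 0.42). Tomm34, a cytosolic cochaperone that binds heat shock proteins, had 31.4, 36.0 and 38.8 CPM in LSD1oe, against 37.8, 42.5 and 35.5 CPM in control, also overlapping (-0.12 ± 0.11, adjusted p = 0.339).

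5 of the 6 presequence translocase genes were higher. Timm44, the inner-face tether of the import motor (chr8:4259731-4275905), had 224, 214 and 193 CPM in LSD1oe, against 73.1, 76.6 and 79.3 CPM in control (1.46 ± 0.12, adjusted p = 2.61e-07). Timm17a, which forms the translocase core together with Timm23 (chr1:135301535-135313737), had 190, 170 and 167 CPM in LSD1oe, against 66.5, 68.9 and 74.4 CPM in control (1.33 ± 0.15, adjusted p = 7.51e-06). The groups were far apart for both. Timm50, the receptor that takes presequences from the TOM complex, had 73.8, 70.3 and 95.8 CPM in LSD1oe, against 39.4, 45.0 and 34.2 CPM in control (1.01 ± 0.17, adjusted p = 0.000158). Timm21, which links the translocase to the TOM complex and to respiratory chain assembly, had 47.3, 43.0 and 33.6 CPM in LSD1oe, against 20.2, 18.4 and 22.7 CPM in control (1.01 ± 0.15, adjusted p = 5e-05). Neither gene had overlapping groups. Timm23, the channel subunit, had 14.01, 13.7 and 13.5 CPM in LSD1oe, against 6.15, 6.90 and 6.45 CPM in control (1.08 ± 0.16, 2.11-fold, adjusted p = 5.62e-05). Stretches at 98% identity or more elsewhere in the genome cover 99.7% of its transcript, so its level is uncertain. Timm17b, the other Timm17 isoform gene, had 49.5, 46.1 and 58.6 CPM in LSD1oe, against 39.3, 39.6 and 38.5 CPM in control. The groups did not overlap, yet the difference did not pass (0.39 ± 0.22, adjusted p = 0.133). It passed when LSD1oe day 0 replicate 1 was left out of the shared spread (0.39, adjusted p = 0.00165).

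In the carrier translocase, Timm22, its channel, had 48.9, 45.2 and 55.0 CPM in LSD1oe, against 31.4, 29.4 and 34.3 CPM in control (0.65 ± 0.14, adjusted p = 0.00129). Timm29, a subunit of this translocase described in human cells, had 61.0, 60.9 and 70.3 CPM in LSD1oe, against 60.8, 61.2 and 54.5 CPM in control (0.12 ± 0.11, adjusted p = 0.357). Timm22 had separate groups and Timm29 overlapping ones.

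All 6 tested chaperones of the intermembrane space were higher. Timm10, which with Timm9 carries hydrophobic precursors across this space (chr2:84827021-84830213), showed the widest gap of the family. It had 78.4, 69.3 and 70.5 CPM in LSD1oe, against 14.6, 18.6 and 18.8 CPM in control (2.07 ± 0.22, or 4.19-fold, adjusted p = 3.62e-06). Timm9 had 35.9, 35.0 and 29.1 CPM in LSD1oe, against 20.4, 18.8 and 21.7 CPM in control (0.72 ± 0.16, adjusted p = 0.00185). Both had separate groups, and the sizes of their differences were not compared by a test. Timm10b, which holds the chaperones at the carrier translocase, had 48.5, 48.5 and 46.9 CPM in LSD1oe, against 33.5, 33.8 and 34.3 CPM in control (0.50 ± 0.17, adjusted p = 0.0176). Timm13 had 65.1, 56.9 and 68.6 CPM in LSD1oe, against 36.2, 37.2 and 39.7 CPM in control (0.75 ± 0.18, adjusted p = 0.00297). Timm13 works with the Timm8 proteins in a second chaperone complex. Timm8b had 69.7, 60.3 and 54.8 CPM in LSD1oe, against 33.1, 30.5 and 39.3 CPM in control (0.84 ± 0.18, adjusted p = 0.00103). Timm8a1, whose human counterpart is mutated in a deafness and dystonia syndrome, had 6.79, 5.94 and 3.93 CPM in LSD1oe, against 1.56, 2.46 and 2.54 CPM in control (1.34 ± 0.30, adjusted p = 0.00173). None of these 6 genes had overlapping groups, and near-identical stretches elsewhere cover 99.1% of the Timm8a1 transcript. Tomm6os, the RNA antisense to Tomm6, had 41.4, 37.2 and 43.4 CPM in LSD1oe, against 25.8, 28.5 and 29.6 CPM in control (0.54 ± 0.19, adjusted p = 0.0229). Tomm6 and Tomm6os overlap in their exons and the labels do not say that strand was used in counting, so their reads cannot be told apart there. The same limit touches Tomm40l, where exons of Apoa2 and Nr1i3 on the opposite strand cover 13.7% of the transcript. In Timm8b, exons of Nkapd1 on the opposite strand cover 15.4%. The calls of Tomm6os and Timm10b were the least firm: without single libraries of day 7 the adjusted p of Tomm6os was 0.0554 (LSD1oe replicate 1), 0.0689 (LSD1oe replicate 3), 0.0771 (control replicate 1) and 0.0504 (control replicate 2), and that of Timm10b was 0.051 without LSD1oe replicate 2.

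**Figure D2:**
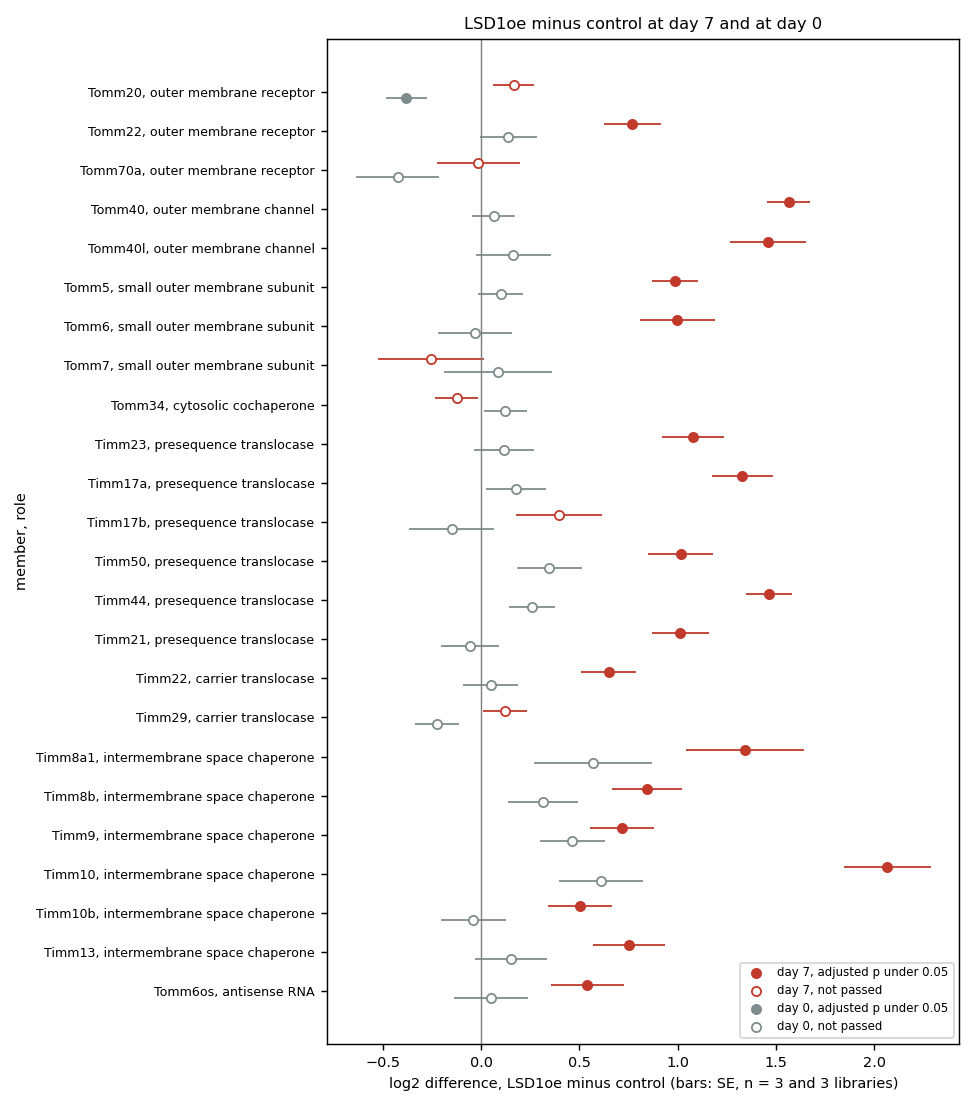
Log2 difference (horizontal axis, LSD1oe minus control) of each tested member at day 7 and at day 0, with bars of 1 SE from the fit on 3 and 3 libraries and filled points for adjusted p under 0.05. At day 7 the filled points run from 0.50 (Timm10b) to 2.07 (Timm10), while at day 0 the only filled point is Tomm20 at -0.38.

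A chosen list of 25 genes outside the Timm and Tomm members showed 23 higher and 0 lower at day 7, with a median log2 difference of 0.95. Besides import genes it held Hspd1, Hspe1, Timmdc1 and Aifm1, so it is not a list of the import pathway alone. Hspa9, the chaperone that drives the import motor, averaged 2776 ± 196 CPM in LSD1oe and 758 ± 27.2 CPM in control (1.87 ± 0.22, adjusted p = 7.5e-06). Dnajc15, a cochaperone of that motor, averaged 169 ± 3.76 CPM in LSD1oe and 47.3 ± 2.05 CPM in control (1.83 ± 0.14, adjusted p = 1.43e-07). Samm50, the core of the machinery that inserts barrel proteins such as Tomm40, averaged 257 ± 19.8 CPM in LSD1oe and 93.1 ± 13.0 CPM in control (1.46 ± 0.16, adjusted p = 5.02e-06). Pam16 (0.797 ± 0.240 CPM in LSD1oe and 1.37 ± 0.699 CPM in control, adjusted p = 0.112) and Mtx3 (20.4 ± 6.23 CPM in LSD1oe and 29.6 ± 2.41 CPM in control, adjusted p = 0.117) did not pass. Of other mitochondrial lists in this comparison, 69 of 78 mitochondrial ribosome genes were higher and 1 lower (median log2 difference 0.92), 37 of 38 complex I subunits were higher and 0 lower (1.42), and 26 of 39 Slc25 carriers were higher and 6 lower (0.90). The Timm and Tomm share was not tested against these lists, and 5 of the 6 adipocyte markers were higher and 6 of the 6 fibroblast markers lower between the same libraries. Nrf1 RNA averaged 33.9 ± 1.70 CPM in LSD1oe and 28.2 ± 1.29 CPM in control at day 7 (0.27 ± 0.14, adjusted p = 0.116), and Ppargc1a, a coactivator of mitochondrial biogenesis, 70.5 ± 10.9 CPM in LSD1oe and 55.9 ± 6.99 CPM in control (0.34 ± 0.25, adjusted p = 0.255). Gabpa, chosen beside them, averaged 91.3 ± 15.6 CPM in LSD1oe and 115 ± 6.01 CPM in control. It lay lower in every LSD1oe library without passing edgeR's test (-0.34 ± 0.20, adjusted p = 0.153).

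Before induction only Tomm20 differed between the labels past the threshold. At day 0, 0 members were higher and 1 lower in LSD1oe, against backgrounds of 12.8% and 13% of all genes tested (25.8% in either direction), and the median log2 difference was 0.11. At an unadjusted p under 0.05, 3 members were higher (Timm10, Timm44 and Timm9), and DESeq2 called 2 higher. Tomm20 had 135, 145.5 and 166.5 CPM in LSD1oe, against 195, 195 and 192 CPM in control, with no overlap (-0.38 ± 0.10, 0.77-fold, adjusted p = 0.0179). That call was lost without LSD1oe replicate 2 (adjusted p = 0.0517) and without control replicate 1, 2 or 3 (adjusted p = 0.0531, 0.0515 and 0.0544). Timm10 had 12.4, 24.4 and 25.3 CPM in LSD1oe, against 14.3, 12.9 and 13.5 CPM in control (0.61 ± 0.22, adjusted p = 0.0549), and Timm9 had 11.6, 13.6 and 15.99 CPM in LSD1oe, against 9.89, 11.8 and 8.21 CPM in control (0.46 ± 0.17, adjusted p = 0.0568). For Timm10, LSD1oe replicate 1 lay below every control library while the other 2 lay above all of them. Timm9 passed without control replicate 2 (0.60, adjusted p = 0.0378). In 1 member every LSD1oe library lay above every control library (Tomm34, 18% of all genes tested) and in 3 below (Tomm20, Tomm70a and Timm29, 19.6%).

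The levels of the other members at day 0 are given by role. Tomm22 had 68.1, 46.8 and 48.2 CPM in LSD1oe, against 43.5, 55.7 and 49.1 CPM in control. Tomm70a had 60.5, 118 and 128 CPM in LSD1oe, against 131, 143 and 138 CPM in control. Tomm40 had 85.1, 69.5 and 78.8 CPM in LSD1oe, against 70.0, 79.2 and 74.0 CPM in control. The Tomm70a groups did not overlap and the other 2 did. Tomm40l had 28.9, 17.9 and 18.9 CPM in LSD1oe, against 17.9, 23.6 and 17.2 CPM in control. Tomm5 had 36.1, 37.0 and 42.3 CPM in LSD1oe, against 34.4, 39.0 and 34.4 CPM in control. Tomm6 had 157, 83.8 and 101 CPM in LSD1oe, against 111.5, 127 and 111 CPM in control. These 3 outer membrane genes had overlapping groups. Tomm7 had 24.7, 12.2 and 15.8 CPM in LSD1oe, against 12.8, 22.4 and 14.5 CPM in control. Tomm34 had 48.1, 49.6 and 50.7 CPM in LSD1oe, against 45.1, 45.0 and 46.2 CPM in control. Tomm34 was the member with every LSD1oe library above the control ones, by little (0.12 ± 0.11, adjusted p = 0.444). In the presequence translocase, Timm23 had 7.33, 8.87 and 10.2 CPM in LSD1oe, against 8.05, 7.33 and 8.96 CPM in control. Timm17a had 46.3, 29.9 and 36.8 CPM in LSD1oe, against 29.9, 39.0 and 31.1 CPM in control. Timm17b had 89.4, 42.8 and 49.1 CPM in LSD1oe, against 62.1, 72.0 and 67.0 CPM in control. All 3 overlapped. Timm50 had 48.1, 35.8 and 45.0 CPM in LSD1oe, against 28.3, 36.0 and 37.0 CPM in control. Timm44 had 61.2, 45.8 and 51.3 CPM in LSD1oe, against 42.5, 46.5 and 43.2 CPM in control. Timm21 had 12.2, 10.7 and 13.0 CPM in LSD1oe, against 12.4, 12.7 and 12.3 CPM in control. These also overlapped, and Timm44 had a log2 difference of 0.26 ± 0.12 (adjusted p = 0.121). In the carrier translocase, Timm22 had 26.1, 22.9 and 25.7 CPM in LSD1oe, against 19.6, 28.0 and 24.7 CPM in control. Timm29 had 43.6, 53.4 and 52.6 CPM in LSD1oe, against 55.5, 58.8 and 60.8 CPM in control. Timm29 lay lower in every LSD1oe library without passing (-0.23 ± 0.11, adjusted p = 0.158). Among the chaperones, Timm8a1 had 2.09, 3.58 and 3.80 CPM in LSD1oe, against 1.81, 2.09 and 2.50 CPM in control. Timm8b had 35.0, 22.2 and 30.4 CPM in LSD1oe, against 19.8, 26.5 and 24.2 CPM in control. Both are partners of Timm13. Timm13 had 34.5, 21.2 and 31.6 CPM in LSD1oe, against 22.8, 32.7 and 23.2 CPM in control. Timm10b had 45.3, 26.6 and 34.4 CPM in LSD1oe, against 33.9, 42.1 and 33.3 CPM in control. Tomm6os, the antisense RNA, had 41.8, 22.7 and 26.5 CPM in LSD1oe, against 26.7, 31.8 and 29.3 CPM in control. The groups of these 5 overlapped.

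LSD1oe day 0 replicate 1 departed from its partners in both directions, above their mean in 15 members and below it in 9. Tomm70a was at 60.5 CPM in it and at 118 and 128 CPM in the other 2, Tomm6 at 157 CPM against 83.8 and 101 CPM, and Timm17b at 89.4 CPM against 42.8 and 49.1 CPM. Its departure had a Spearman correlation of -0.133 with transcript length over the 24 members, which share the library. Without it, 3 members were higher at day 0: Timm10 (0.87, adjusted p = 5.69e-06), Timm8a1 (0.79, adjusted p = 0.0202) and Timm9 (0.57, adjusted p = 0.00406). 3 were then lower: Tomm20, Timm17b (-0.55, adjusted p = 0.000455) and Tomm6 (-0.34, adjusted p = 0.0199). The choice between these readings of day 0 rests on that library.

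During differentiation of LSD1oe cells nearly the whole family went up. 21 members were higher at day 7 than at day 0 and 1 was lower, where 32.6% and 37.2% of all genes tested were higher and lower (69.8% in either direction). Every day 7 library lay above every day 0 library in 21 members and below in 1, as in 33% and 36.1% of all genes tested. The median log2 difference was 0.95, and -0.07 over all genes tested. Timm17a had the largest one, with 190, 170 and 167 CPM at day 7, against 46.3, 29.9 and 36.8 CPM at day 0 (2.22 ± 0.16, or 4.67-fold, adjusted p = 4.85e-08). Timm44 had the smallest adjusted p, with 224, 214 and 193 CPM at day 7, against 61.2, 45.8 and 51.3 CPM at day 0 (2.00 ± 0.12, adjusted p = 8.32e-09). Tomm40 had 227, 233 and 275 CPM at day 7, against 85.1, 69.5 and 78.8 CPM at day 0 (1.66 ± 0.11, adjusted p = 2.73e-08). No group overlapped in these 3 genes.

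The other members of the LSD1oe series followed by role. The log2 difference was 1.81 ± 0.22 for Timm10 and 1.79 ± 0.15 for Timm21, which had 47.3, 43.0 and 33.6 CPM at day 7, against 12.2, 10.7 and 13.0 CPM at day 0. Among receptors, Tomm22 was higher by 1.27 ± 0.15, Tomm70a by 0.83 ± 0.21 and Tomm20 by 0.31 ± 0.10, all past the threshold. Tomm7 had 43.2, 31.9 and 40.7 CPM at day 7, against 24.7, 12.2 and 15.8 CPM at day 0 (1.14 ± 0.27, adjusted p = 0.00239). Tomm34, the cytosolic cochaperone, was the 1 member to fall, with 31.4, 36.0 and 38.8 CPM at day 7, against 48.1, 49.6 and 50.7 CPM at day 0 (-0.48 ± 0.11, adjusted p = 0.00159). Timm17b (-0.23 ± 0.22) and Tomm6os (0.42 ± 0.19) did not pass, and Tomm6os passed without LSD1oe day 0 replicate 1 (0.72, adjusted p = 1.53e-05), which brings the count to 22. The calls of Timm10b, Timm8a1 and Tomm20 were lost without single libraries: Timm10b without any of 5 (adjusted p 0.0519 to 0.122: LSD1oe day 7 replicates 1, 2 and 3 and day 0 replicates 2 and 3), Timm8a1 without LSD1oe day 7 replicate 1 or 2 (0.1 and 0.0717), and Tomm20 without LSD1oe day 7 replicate 2 or day 0 replicate 2 (0.0615 and 0.0502). Fitted on the LSD1oe groups only, these 3 and also Timm29 (adjusted p = 0.0656) and Tomm6 (adjusted p = 0.0516) did not pass, which left 16 higher, and without a filter on low counts Timm29 (adjusted p = 0.0507) and Tomm20 (adjusted p = 0.0795) did not pass. Without LSD1oe day 0 replicate 1 the log2 difference was 2.40 for Timm17a, 2.12 for Timm44, 1.72 for Tomm40, 1.55 for Timm10, 0.92 for Tomm6 and 0.57 for Tomm70a, and that of Timm17b, which did not pass, was 0.16.

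In control cells part of the family was higher after the same interval. 9 were higher and 1 lower at day 7 than at day 0, with 23.7% and 24.6% of all genes tested higher and lower (48.3% in either direction), and a median log2 difference of 0.19. Every day 7 library lay above every day 0 library in 12 members and below in 5, as in 33.8% and 35.4% of all genes tested. Tomm7 had the widest gap, with 36.6, 44.0 and 57.7 CPM at day 7, against 12.8, 22.4 and 14.5 CPM at day 0 (1.48 ± 0.28, adjusted p = 0.000764). Timm17a had 66.5, 68.9 and 74.4 CPM at day 7, against 29.9, 39.0 and 31.1 CPM at day 0 (1.07 ± 0.15, adjusted p = 0.00011). Timm44 had 73.1, 76.6 and 79.3 CPM at day 7, against 42.5, 46.5 and 43.2 CPM at day 0 (0.79 ± 0.12, adjusted p = 0.00012). Each of these 3 had separate groups. Timm9 was also higher (1.02 ± 0.17, adjusted p = 0.000268), as were Timm21 (0.71 ± 0.15), Tomm22 (0.64 ± 0.14), Timm8b (0.55 ± 0.18), Timm13 (0.52 ± 0.18) and Timm22 (0.40 ± 0.14). Timm17b fell, with 39.3, 39.6 and 38.5 CPM at day 7, against 62.1, 72.0 and 67.0 CPM at day 0 (-0.78 ± 0.22, adjusted p = 0.0107). Tomm40, the channel gene, had 81.3, 84.9 and 82.1 CPM at day 7, against 70.0, 79.2 and 74.0 CPM at day 0, which did not pass (0.15 ± 0.11, adjusted p = 0.266). Without single libraries, the calls of Timm13 (any control library but day 0 replicate 2, adjusted p 0.0591 to 0.121), Timm22 (control replicates 1 and 3 of either day, 0.0717 to 0.149) and Timm8b (control day 7 replicate 3, day 0 replicates 1 and 3, 0.051 to 0.0991) were lost. Tomm6 passed as lower without LSD1oe day 0 replicate 2 (-0.42, adjusted p = 0.041). Without LSD1oe day 0 replicate 1, which enters through the shared spread, 11 members were higher and 4 lower, with Timm10 and Tomm70a among the higher and Tomm20, Tomm34 and Tomm6 among the lower. The counts of the 2 time courses lay closer when each was fitted on its own 2 groups: 16 higher and 1 lower in LSD1oe, and 12 higher and 3 lower in control.

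**Figure D3:**
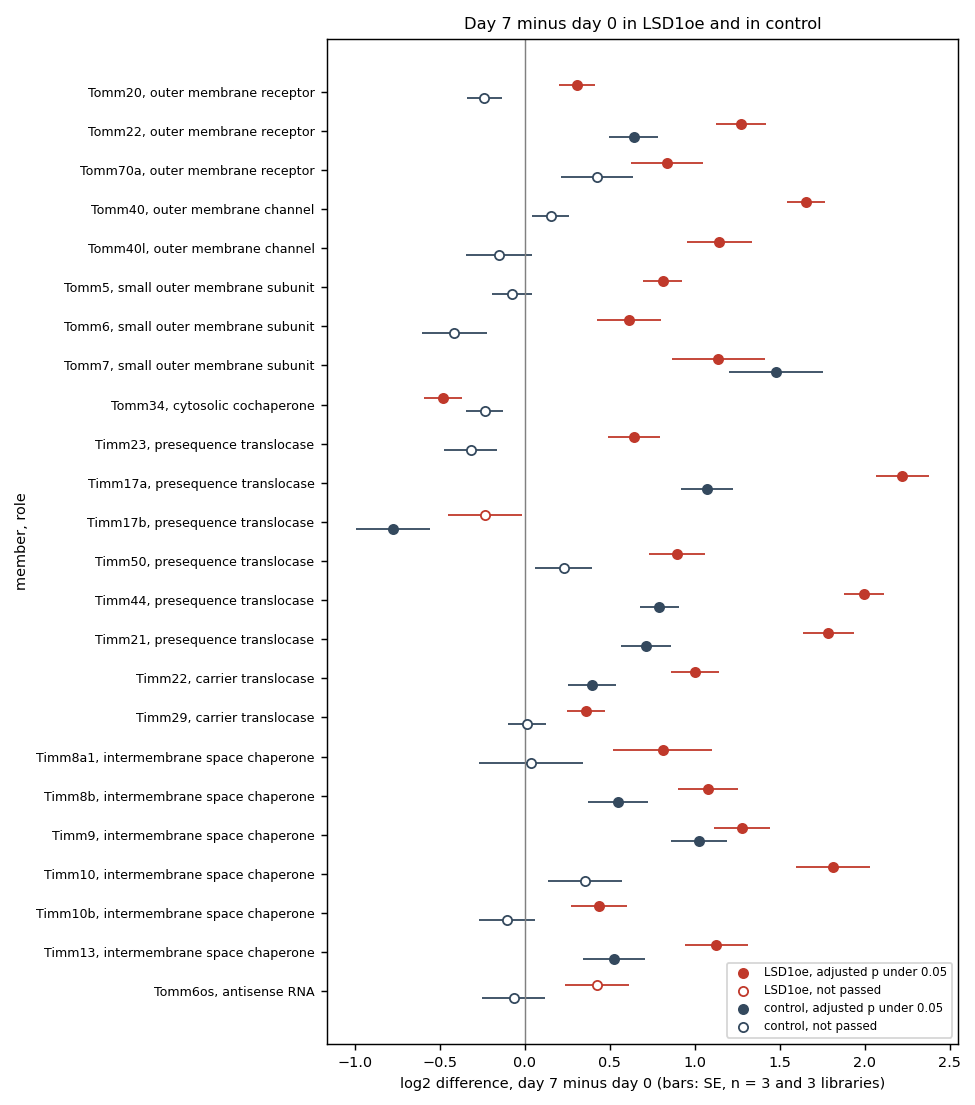
Log2 difference (horizontal axis, day 7 minus day 0) of each tested member in LSD1oe and in control, with bars of 1 SE from the fit on 3 and 3 libraries and filled points for adjusted p under 0.05. In LSD1oe 21 filled points lie right of 0 and Tomm34 left of it at -0.48, while in control 9 lie right of 0 and Timm17b left of it at -0.78.

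The difference between the 2 time courses was tested directly as an interaction. 13 members changed more upward in LSD1oe than in control and 0 less, where 23.9% of all genes tested had a higher and 28.1% a lower interaction (51.9% either). 0 were lower at an unadjusted p under 0.05 and by DESeq2, and the median over the members was 0.62. The largest was Tomm40 (1.5 ± 0.15, adjusted p = 5.65e-06), then Timm10 (1.46 ± 0.30, adjusted p = 0.00148), Tomm40l (1.30 ± 0.27, adjusted p = 0.00151), Timm44 (1.21 ± 0.16, adjusted p = 5.5e-05) and Timm17a (1.15 ± 0.22, adjusted p = 0.00069). Of the 12 members that were higher over time in LSD1oe and did not pass in control, 8 had a higher interaction and 4 did not pass it: Timm10b, Timm29, Timm8a1 and Tomm70a. Of the 9 that were higher in both, 5 had a higher interaction: Timm17a, Timm21, Timm22, Timm44 and Tomm22. Timm13, Timm8b, Timm9 and Tomm7 were higher in both and did not pass the interaction. By role, both channel genes and 5 of 6 presequence translocase genes had a higher interaction. Of the 6 chaperones 1 did, Timm10, with estimates from 0.25 to 1.46 over the 6. The roles were not compared by a test. Leaving out 1 library moved the count between 10 and 18. The 18 came without LSD1oe day 0 replicate 1, which added Timm10b, Timm13, Timm17b, Timm8b and Tomm6os, and the interaction was then 1.57 for Tomm40, 1.20 for Timm10, 1.55 for Tomm40l, 1.33 for Timm44 and 1.33 for Timm17a. Timm50 lost its call without LSD1oe day 7 replicate 3, control day 7 replicate 1 or 3, LSD1oe day 0 replicate 2 or control day 0 replicate 2 or 3 (adjusted p 0.0555 to 0.0765), Timm22 without LSD1oe day 7 replicate 3 or control replicate 2 of either day (0.0522 to 0.062) and Tomm22 without control day 0 replicate 2 (0.0547).

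Levels between genes can be compared only per length, and on the scale of CPM per kb of transcript the order of the family changed with condition. Timm17a led in LSD1oe at day 7 with 192 CPM per kb, followed by Tomm6 with 173, Tomm40 with 147 and Tomm22 with 128. In control at day 7 Tomm6 led with 86.7 CPM per kb, with Timm17a at 76.3 and Tomm22 at 75.3. At day 0 Tomm6 led in LSD1oe with 113 and in control with 116 CPM per kb, and Timm17a stood sixth and eighth. Timm8a1 was the lowest tested member in every group, between 1.74 and 4.53 CPM per kb, with Timm23 next above it at day 7. Both are the genes whose transcripts are almost fully covered by near-identical copies, and the same limit touches Tomm5 (63.5% of its transcript) and Tomm20 (20.6%).

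The balance within paralog pairs was followed per library. The ratio of Timm17a to Timm17b, each per kb, averaged 6.43 ± 0.984 in LSD1oe and 3.32 ± 0.237 in control at day 7, and 1.22 ± 0.225 in LSD1oe and 0.920 ± 0.0742 in control at day 0 (SD, n = 3 each). Timm17a thus stood near Timm17b at day 0 and well above it at day 7, and the ratio's groups did not overlap between labels at day 7 or between days. Timm10 to Timm10b averaged 2.49 ± 0.157 in LSD1oe and 0.840 ± 0.108 in control at day 7, and 1.05 ± 0.543 in LSD1oe and 0.620 ± 0.103 in control at day 0. The LSD1oe libraries of day 0 were at 0.451 (replicate 1, the one that stood apart), 1.504 and 1.20 for this ratio, and at 0.963, 1.30 and 1.39 for Timm17a to Timm17b. At day 7 the Timm10 to Timm10b ratio also had separate groups, above 1 in every LSD1oe library and below 1 in every control library. Its groups did not overlap between days in either label. Tomm40 to Tomm40l averaged 8.88 ± 0.273 in LSD1oe and 8.31 ± 0.816 in control at day 7, and Timm8b to Timm8a1 26.6 ± 4.98 in LSD1oe and 38.1 ± 10.4 in control, with overlapping groups in both pairs. At day 0 Tomm40 to Tomm40l averaged 6.42 ± 1.12 in LSD1oe and 6.76 ± 0.832 in control. Between days this ratio did not overlap in either label, while Timm8b to Timm8a1 overlapped in both. An exact two-sided permutation test of the Timm17 and Timm10 ratios at day 7 gave p = 0.1, the smallest that 3 against 3 libraries allow, and 0.4 for Tomm40 and 0.2 for Timm8, with 16 ratio comparisons made in all and no adjusted p under 0.2.

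**Figure D4:**
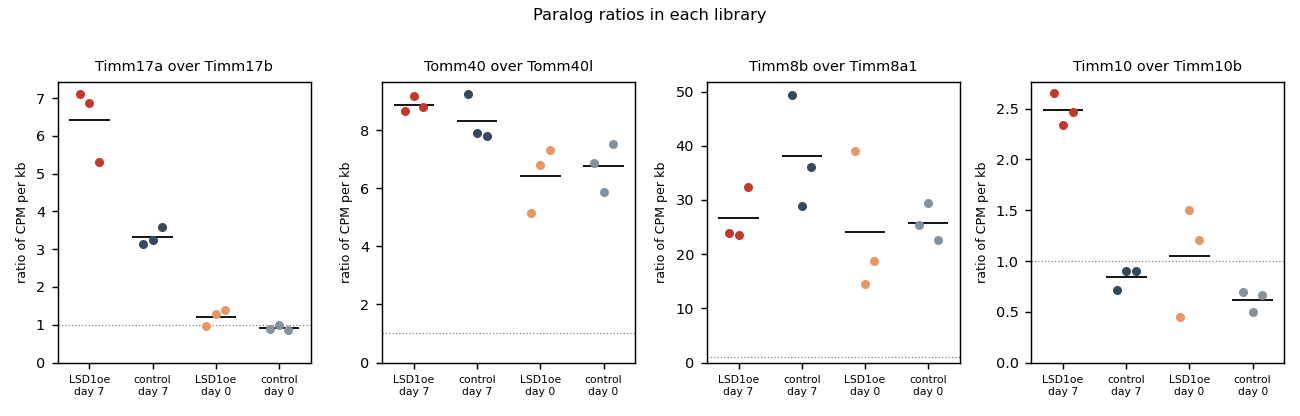
Ratio of CPM per kb (vertical axes, linear from 0) of 4 paralog pairs in each library, by group on the horizontal axes, with a bar at the mean of 3 and a dotted line at 1. The Timm17a over Timm17b ratio averages 6.43 in LSD1oe and 3.32 in control at day 7, and 1.22 in LSD1oe and 0.920 in control at day 0.

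At the promoters, LSD1 peaks covered almost every expressed member in LSD1oe cells. Within 1 kb of a start site a peak was listed at 24 of 26 members in LSD1oe at day 7, 18 in control at day 7, 22 in LSD1oe at day 0 and 5 in control at day 0. The same windows held a peak at 45%, 32.5%, 39.5% and 12.5% of all 26180 annotated genes in those lists. Among genes tested for expression the member shares were 24 of 24, 18 of 24 (75.0%), 22 of 24 (91.7%) and 5 of 24 (20.8%), beside 80.9%, 59.8%, 71.4% and 23.0% of all such genes, so the share in control at day 0 was near the background. The members without a peak in the first list were Timm8a2 and Tomm20l, the ones with almost no reads. With 1 sample per list, unequal list lengths (27221, 8303, 13997 and 3024 peaks) and no depth given, no difference between lists was tested. Another gene starts on the opposite strand within 1 kb of Timm10b (29 bases), Timm8b (52), Timm23 (58), Timm17b (67), Timm29 (109), Timm9 (173), Timm21 (592) and Tomm40l (950), so a peak there is not assigned to 1 gene of the pair.

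Scores are the authors' own and rank peaks within 1 list. In LSD1oe at day 7 the highest member scores were at Timm22 (1879.59, chr11:76406570-76407705), at Tomm6 and Tomm6os, whose starts lie 776 bases apart under 1 peak (1628.84, chr17:47687006-47689444), and at Timm21 (1250.88). The median member peak of this list scored above 80.0% of its peaks. In control at day 7 the highest were Tomm70a (434.27), Tomm6 (254.43) and Timm13 (190.7), and the median member peak scored above 49.2% of the list. In LSD1oe at day 0 they were Timm29 (700.57), Tomm34 (660.57) and Timm17a (526.37), with the median member above 64.0% of the list. The 5 members in the control list of day 0 were Tomm34 (108.99), Timm22 (107.96), Timm13 (67.76), Tomm5 (57.73) and Timm29 (55.73), and these 5 were in all 4 LSD1 lists. Timm10, the gene with the widest day 7 difference, was listed only in LSD1oe at day 7 (score 994.0, chr2:84826245-84827975).

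LSD1 peaks were set beside the RNA of day 7. The 6 tested members without an LSD1 peak in control at day 7 were Timm10, Timm17a, Timm8a1, Timm9, Tomm22 and Tomm40l, and all 6 had higher RNA in LSD1oe at day 7, with a median log2 difference of 1.34. Of the 18 members with that peak, 12 were higher, with a median of 0.70. Over all 24 tested members 18 were higher, and the same split over all genes tested was not made. All 24 tested members had a peak in the LSD1oe list of day 7, so that list cannot sort the members by RNA. Tomm70a and Tomm34, with scores of 664.29 and 1046.12 there, were among those with no RNA difference that passed at that day. These are descriptions of 24 genes and were not tested.

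**Figure D5:**
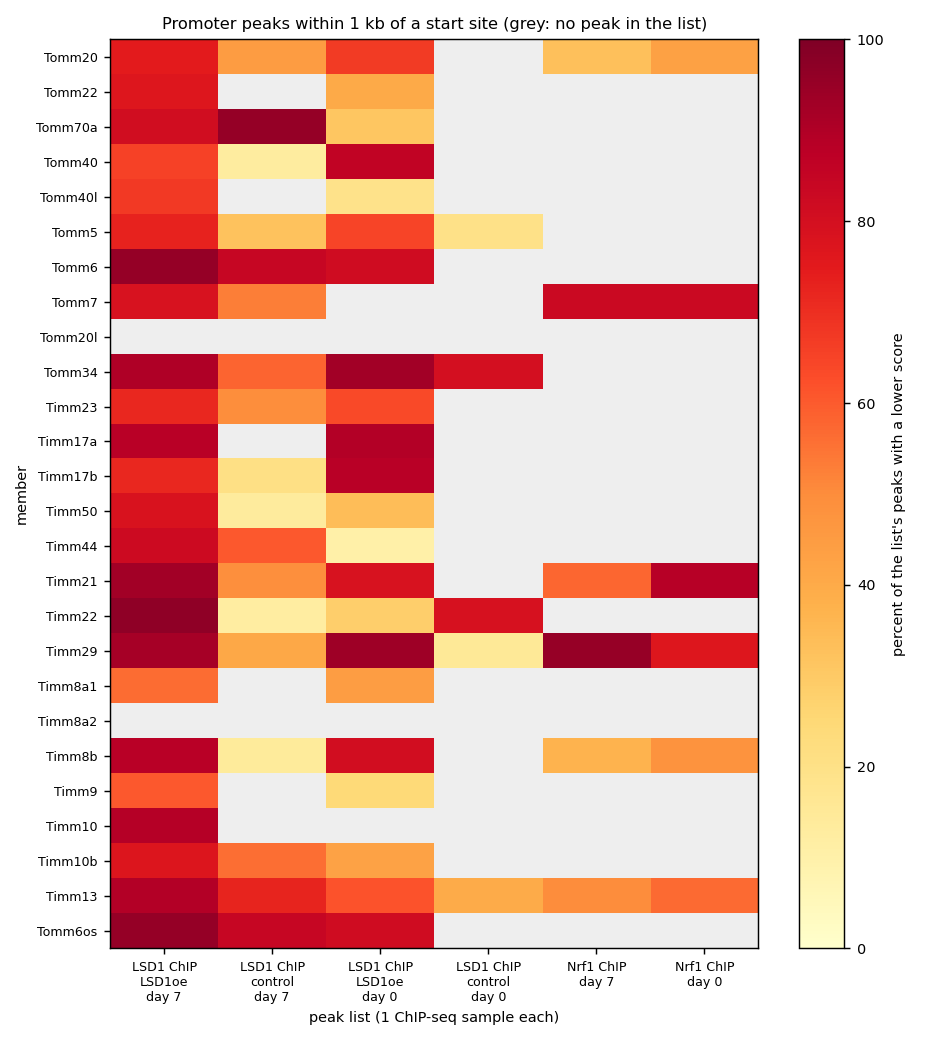
Promoter peaks of the 26 members (rows) in the 6 peak lists (columns, 1 ChIP-seq sample each), coloured by the percent of the list's peaks with a lower score and grey where the list has no peak within 1 kb. The first column is filled for 24 members, the column of LSD1 in control at day 0 for 5, and both Nrf1 columns for the same 6 members.

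Nrf1 peaks were fewer. 6 of 26 members had one in each list, beside 7.09% of all annotated genes at day 7 and 6.59% at day 0, while among genes tested for expression 6 of 24 members (25.0%) had one, beside 13.1% of all such genes at day 7 and 12.1% at day 0. The day 7 sample carries LSD1 in its title and control as its genotype label, so it is described by day alone. Scores at day 7 were 399.12 at Timm29, 223.62 at Tomm7, 121.4 at Timm21, 106.05 at Timm13, 84.81 at Timm8b and 79.83 at Tomm20, and at day 0 they were 114.22, 133.46, 165.15, 77.35, 69.22 and 65.6 in the same order of genes. All 6 members had at least 1 match to the motif printed above within their peaks at both days, where 62.7% of all peaks of day 7 and 40.3% of those of day 0 hold one. At day 0 Timm13 had 2 peaks, and the one over its start site (score 77.35) held 0 matches. Its 2 matches lay in the other peak (score 66.25), centred 607 bases past the start and not covering it. In RefSeq promoter windows of 250 bases before to 50 after the start, 2 of the 23 members in that table held the motif (Timm8b and Tomm20), beside 5.19% of 27025 genes. Tomm7, Timm21 and Tomm40l have no entry in that table, and the genome matches under the peaks of Tomm7 and Timm21 were centred at -7 and -156 bases from the start. Timm8b shares its promoter with Sdhd, whose start lies 52 bases away on the other strand, Timm29 with Yipf2 at 109 bases and Timm21 with Fbxo15 at 592 bases, so these Nrf1 peaks are not assigned to 1 gene either.

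Members with an Nrf1 peak were set beside the RNA in the same way. Of the 6, 3 were higher in LSD1oe at day 7 (Timm13, Timm21 and Timm8b), with a median log2 difference of 0.46. Of the 18 tested members without an Nrf1 peak, 15 were higher, with a median of 0.99. Timm29 and Tomm7, with the highest Nrf1 scores at day 7, had log2 differences of 0.12 and -0.26 that did not pass, and neither share was tested against the other. The split by Nrf1 peak was not made over all genes tested either.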

How the data were processed

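The authors deposited raw read counts per RefSeq transcript for the 12 RNA-seq libraries and 6 peak lists with a score per peak; the input samples have no file used here. The submitters' processing notes name mm10 as build, TopHat2 version 2, HOMER, edgeR, DESeq 1.8.3, Bowtie2 and MACS 1.41 (as written); cut-off, strand use and ChIP-seq depth are not given in the sources used here. Of 30521 transcripts per file, 29140 were named from RefSeq, 181 from GENCODE and 1200 stayed unnamed (0.896% of counts). For a gene with several transcripts, the one with most counts on average stood for it, since isoforms share reads. The test was the quasi-likelihood one of edgeR 4.0.16 under R 4.3.3, with all 12 libraries and 4 group means in 1 robust fit (TMM scaling, filterByExpr, two-sided, Benjamini-Hochberg over 13356 genes). CPM used TMM-scaled totals. The fit was run on simulated counts with 200 genes changed in the LSD1oe day 7 group only. In the data 63.6% of all genes tested were called between labels at day 7. The simulation therefore did not check scaling under so broad a change. DESeq2 1.42.0, RLE scaling, no filter, summed transcripts, compared groups only, a replicate block, a threshold of 0.01 and each library left out were alternatives. Near-identical copies were aligned with BLAST 2.17.0 (at least 98% identity over 50 bases). Every member is accounted for; values per library are given by role and for the smallest adjusted p in each comparison. Members, lists and rules were chosen with earlier results of these data known. Reads carry no molecular identifiers, so counting error is the least error present. Protein sequences were not used here.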

Additional observations from a re-analysis of the deposited data

Results flagged for a closer look

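In 13 members the effect of the LSD1oe label at day 7 differed from its effect at day 0 by the interaction test of edgeR (adjusted p under 0.05, 23.9% of all genes tested in that direction), the same test as for the difference between the 2 time courses. The excess of the day 7 effect over the day 0 effect, on the log2 scale, was 1.5 for Tomm40, 1.46 for Timm10, 1.30 for Tomm40l, 1.21 for Timm44, 1.15 for Timm17a, 1.07 for Timm21 and 1.03 for Tomm6. It was 0.96 for Timm23, 0.89 for Tomm5, 0.67 for Timm50, 0.63 for Tomm22, 0.60 for Timm22 and 0.55 for Tomm20. Tomm20 differs from the rest in that its value combines a rise that did not pass at day 7 (0.17) with a call as lower at day 0 (-0.38). LSD1oe day 0 replicate 1, the library that stood apart, enters all 13 values, and leaving it out gave 18 members. Without it the 13 all passed, at 1.57 for Tomm40, 1.20 for Timm10, 1.55 for Tomm40l, 1.33 for Timm44, 1.33 for Timm17a, 1.09 for Timm21, 1.33 for Tomm6, 0.85 for Timm23, 0.85 for Tomm5, 0.76 for Timm50, 0.83 for Tomm22, 0.64 for Timm22 and 0.48 for Tomm20. Adipocyte and fibroblast markers also had interactions past the threshold, 6 of 6 adipocyte markers higher and 5 of 6 fibroblast markers lower, and their part was not tested.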

How the results depend on the processing

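Over all alternatives the single-member results kept their call 2156 times, lost it 65 times and gained it 35 times. Where either fit passed, the direction reversed 0 times. Results that passed in neither fit were counted as kept whatever their sign. Timm17b over time in LSD1oe was such a case, with log2 differences from -0.429 to 0.162. The count of members higher at day 0 (0) was 2 by DESeq2 and 1 with summed transcripts, and that of members lower at day 0 (1) was 0 on the compared groups only and 0 at a threshold of 0.01. The count lower over time in control (1) was 2 by DESeq2, 3 on the compared groups only and 0 at a threshold of 0.01. With peaks of score 100 or more, members with an LSD1 peak stayed at 24 in LSD1oe at day 7. They fell to 12 in control at day 7 (18 as deposited), 17 in LSD1oe at day 0 (22 as deposited) and 2 in control at day 0 (5 as deposited). For Nrf1 they fell to 4 at day 7 and 3 at day 0 (6 as deposited at each day). The stricter Nrf1 motif with A as its open base was in 0 of the 23 member promoters of the RefSeq table (2 with any base). That table has no entry for Tomm7, whose site printed above is of that form. Leaving out 1 library moved the counts of higher and lower members between 17 and 19 and at 0 and 0 (label, day 7), between 0 and 3 and between 0 and 3 (label, day 0), between 18 and 22 and at 1 and 1 (time, LSD1oe), between 6 and 11 and between 1 and 4 (time, control), and between 10 and 18 and at 0 and 0 (interaction). The causes of these moves were not tested. Replicate numbers did not pair the libraries (correlations of same-numbered deviations -0.249 to 0.114); with the replicate block 18 members were higher at day 7, 0 higher and 1 lower at day 0, 21 and 8 higher over time in LSD1oe and control, and 12 in the interaction.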
